A study of Mus musculus with 11 samples.

Results

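The 7 genes of the NMDA receptor family, Grin1, Grin2a, Grin2b, Grin2c, Grin2d, Grin3a and Grin3b, were followed in sorted prefrontal neurons of naïve and ethanol-withdrawn mice. The genes were chosen by symbol, and all 7 were found among the 53465 gene identifiers of the count files. The cells carried the GFP of the CRF1:GFP reporter line, which marks neurons that express the corticotropin releasing factor receptor CRF1, and were sorted from the medial prefrontal cortex (mPFC). Each library held the sorted cells of 1 adult male mouse older than 10 weeks, so that n counts mice. The 5 withdrawn mice had breathed ethanol vapor intermittently for 5 to 6 weeks, with ethanol and pyrazole injections, and were 5 to 8 days into abstinence. The 6 naïve mice received air and pyrazole. Both groups carried the same reporter.

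Groups follow the title and treatment label of each sample. In withdrawn mice 3, 4 and 5 the source label contradicts these and says control, and the overall description of the series counts 5 controls and 6 ethanol animals. Results without these 3 mice are therefore given where they change a call. The libraries held between 7351567 and 22244869 counts on genes. Crhr1, the gene of CRF1, lay between 42.2 and 135.6 CPM (counts scaled to the normalized library size) in the 11 mice, and Slc17a7, the vesicular glutamate transporter of cortical excitatory neurons, between 738 and 1928 CPM. The share of reads on no gene ranged from 5.77% in naïve mouse 5 to 48.1% in withdrawn mouse 4. All 8 tested genes of a list of 10 fibroblast markers had a positive log2 fold change in withdrawn mice, 7 of them with an unadjusted edgeR p under 0.05. Their summed level was 0.0677 to 105.3 CPM in naïve and 30.3 to 1770 CPM in withdrawn mice, and their part in the results below was not tested.

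NMDA receptors are tetrameric cation channels. In their usual, glutamate-gated form they pass current once glutamate and glycine or D-serine are bound and depolarization has relieved a block by magnesium. Each receptor holds GluN1 subunits (Grin1), which bind glycine or D-serine, together with GluN2 subunits (Grin2a to Grin2d), which bind glutamate and set how fast the channel closes, or with GluN3 subunits (Grin3a and Grin3b), which bind glycine and lower calcium entry. In forebrain neurons GluN2B prevails early in life and GluN2A joins it as synapses mature, and ethanol inhibits these receptors directly. The study recorded AMPA and NMDA currents in these neurons, and the counts show which subunit transcripts the sorted cells held.

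The members are separate genes that share a fold, and their sequences show how far reads from one could be taken for another. The stretch shown is the longest run of codons that translates alike in all 7 genes. It holds 7 codons and lies in the third membrane helix, which lines the channel. It is shown for 4 of the genes, with at least 1 of each subunit class. The 7 shared codons are in capitals within 57 bases of coding sequence, read 5′ to 3′ on the gene's strand from GRCm38, at chr2:25297184-25297240 (Grin1, minus strand), chr11:115253734-115253790 (Grin2c, minus), chr4:49770455-49770511 (Grin3a, minus) and chr10:79974621-79974677 (Grin3b, plus). Each lies within 1 coding exon.
Grin1: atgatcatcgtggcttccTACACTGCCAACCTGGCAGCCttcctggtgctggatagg
Grin2c: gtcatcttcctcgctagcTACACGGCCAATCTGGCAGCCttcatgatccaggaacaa
Grin3a: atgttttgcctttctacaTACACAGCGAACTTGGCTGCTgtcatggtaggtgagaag
Grin3b: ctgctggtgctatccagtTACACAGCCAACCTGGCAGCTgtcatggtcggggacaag
Even in these 21 shared bases, pairs of members differed at 2 to 6 positions, and Grin2a and Grin2b at 4. The longest identical run between the transcripts of any pair of members was 34 bases, between Grin2b and Grin2c, and it was 24 bases between Grin2a and Grin2b. Reads were 75 bases long, so no full-length read without mismatches belongs to more than 1 member.

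Other genes do share sequence with members. Grin2a (ENSMUSG00000059003, chr16:9567898-9995560, minus strand) overlapped no exon of another gene, but 2001 of its 17997 stretches of 75 bases (11.1%) also occur in Gm7328, a processed pseudogene at chr8:56952829-56955053. Gm7328 itself had 0 or 1 counts in every mouse. Reads from these stretches may have been left out as mapping to more than 1 place, which would lower the Grin2a level and its ratio to Grin2b in every mouse, and this was not tested. Grin2b (ENSMUSG00000030209, chr6:135713233-136173511, minus) shared 0.334% of its stretches with other genes. Grin1 (ENSMUSG00000026959, chr2:25291181-25319187, minus) shared 13.5% of its exonic bases with the antisense gene Grin1os, which had 0 to 55 counts per mouse. Grin3b (ENSMUSG00000035745, chr10:79970715-79977190, plus) shared 32.1% with Tmem259 on the opposite strand, which had 255 to 915 counts. Grin2d (ENSMUSG00000002771, chr7:45831883-45878378, minus) shared 9.66% with the antisense gene Gm45441, which had 24 to 122 counts. The library kit does not mark strand, so reads in such shared bases cannot be assigned, and Grin3b and Grin2d are the least certain members. Grin3a (ENSMUSG00000039579, chr4:49661611-49845744, minus) shared no exonic base, and Grin2c (ENSMUSG00000020734, chr11:115249169-115267243, minus) shared 91 bases with Gm25837.

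In naïve mice the sorted neurons held mainly Grin1, Grin2b and Grin2a. Levels of different genes were compared as RPKM, the CPM divided by the length of the merged exons in kilobases. Grin1 averaged 25.1 ± 8.28 RPKM (SD, n = 6), higher than 86.2% of the genes tested. Grin2b followed at 12.8 ± 4.25 RPKM and Grin2a at 9.09 ± 1.499 RPKM. Grin3a, whose product lowers the calcium permeability of the receptors it joins, averaged 4.29 ± 2.04 RPKM. The level of Grin2d, a subunit known from interneurons, was 1.18 ± 0.550 RPKM. Grin2c, known from cerebellar granule cells, and Grin3b, known from motor neurons, averaged 0.116 and 0.0574 RPKM.

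The order was tested between neighbours within each naïve mouse by a two-sided exact sign-flip test, whose smallest possible p is 0.0312 with 6 mice. Per length of merged exons, Grin1 exceeded Grin2b in 6 of 6 naïve mice by 1.99-fold on average (exact p = 0.0312, adjusted over 6 pairs 0.0625). Grin2b exceeded Grin2a in 5 of 6 naïve mice, by 1.31-fold with the possible loss of Grin2a reads to Gm7328 not corrected, and this difference did not exceed the spread (exact p = 0.156, adjusted 0.188). Naïve mouse 5 was the exception, with more Grin2a than Grin2b per length. Grin2a lay above Grin3a in 6 of 6 mice and Grin2d above Grin2c in 6 of 6, each at the smallest possible p (adjusted 0.0625 by the exact test). Grin3a over Grin2d gave an exact p of 0.0625 and Grin2c over Grin3b an exact p of 0.656. No pair passed 0.05 after adjustment, which would need at least 4 of the 6 pairs at the smallest p. The means of the withdrawn mice had the same order for the first 5 genes. Mouse by mouse, Grin2a lay above Grin3a in 4 of 5 withdrawn mice. The exception was withdrawn mouse 2, with 4.26 RPKM of Grin2a and 5.57 RPKM of Grin3a. Without a length correction Grin2b came before Grin1, because its merged exons span 24842 bases against 9700. Other lengths kept the order of the naïve means, but the size of the Grin1 excess depended on the length. Per kilobase of longest coding sequence, the naïve means of Grin1 and Grin2b were 84.6 and 71.3 CPM. Per kilobase of longest transcript they were 56.9 and 13.2 CPM.

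**Figure D1:**
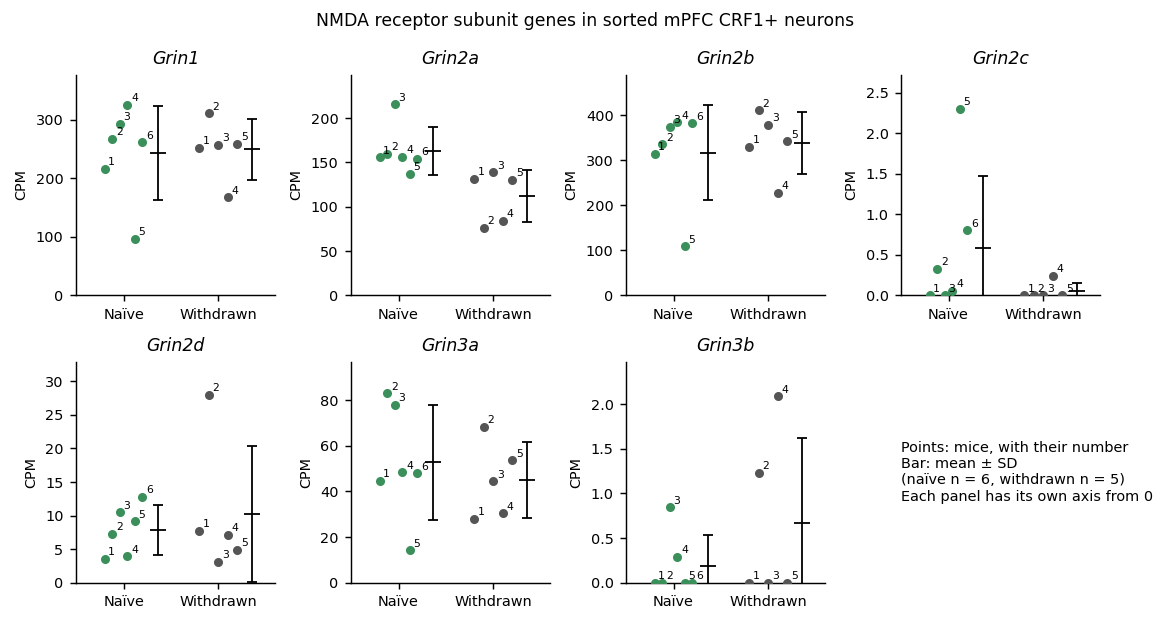
Level of each subunit gene in CPM (vertical axes, each from 0) in the 6 naïve and 5 withdrawn mice, with the mouse number beside each point and the mean ± SD at the right of each group (error bars stop at the axis where they would pass below 0). For Grin2a, withdrawn mice lie at 76.4 to 139 CPM and naïve mice at 137 to 215 CPM, while naïve mouse 5 is the lowest mouse for Grin1, Grin2b and Grin3a.

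The comparison of withdrawn with naïve mice asks whether subunit transcripts change after chronic ethanol. It was fitted over 17093 genes with edgeR's quasi-likelihood test, and calls needed a log2 fold change beyond 0.6 in size besides a Benjamini-Hochberg adjusted p no larger than 0.05. Of the 7 members, 5 passed the low-count filter, and 0 of these 5 were called, against 0.00585% of all genes tested. DESeq2 also called 0 members, against 1.66% of the 21849 genes to which it gave an adjusted p, and limma voom called 0 genes in all. These counts of 0 are near the shares over all genes. At an unadjusted p under 0.05, 1 of the 5 was lower in withdrawn mice, Grin2a, against 2.22% of all genes, and 0 were higher, against 5.0%. In CPM, 0 of the 5 members had groups without overlap, against 0.948% of all genes, or 0.257% counting only genes lower in withdrawn mice. In bulk RNA of sorted cells, fewer cells that express a gene and less of its RNA per cell cannot be told apart.

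Grin2a, which encodes the GluN2A subunit of mature and faster receptors, had the lowest unadjusted p among the members. Naïve mice ranged from 137 to 215 CPM around a median of 156 CPM. The 5 withdrawn mice were at 132, 76.4, 139, 84.1 and 131 CPM in the order of their numbers. All withdrawn mice lay below the naïve median, and the groups overlapped only through withdrawn mouse 3, which was just above naïve mouse 5. The means were 163 ± 26.9 CPM (SD, n = 6) and 112 ± 29.5 CPM (SD, n = 5). The edgeR log2 fold change was -0.54 (SE 0.19, 95% interval -0.95 to -0.12), a fold of 0.689, with an unadjusted p of 0.0144 and an adjusted p of 0.473. Of all tested genes, 3.04% had a p this small and 9.06% had a log2 fold change this low. DESeq2 gave -0.52 with an adjusted p of 0.235. The unadjusted p was under 0.05 in all 19 alternative settings, with log2 fold changes from -0.69 to -0.43, and the adjusted p was never under 0.235.

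Withdrawn mice 2 and 4, the lowest for Grin2a, were also the pair with the fewest counts on genes, 8696939 and 7351567, and the largest shares of reads on no gene, 39.6% and 48.1%. With that share as a covariate, the edgeR log2 fold change of Grin2a was -0.49 with an adjusted p of 0.803. The summed level of 7 excitatory neuron markers, none of them at 0 in any mouse, was 3691 CPM in withdrawn mouse 2, the highest of its group, and 1625 CPM in withdrawn mouse 4, the lowest of all mice. The part of the marker sum in the Grin2a level was not tested.

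Grin1, the subunit every NMDA receptor needs, had group means that differed by less than the spread between mice. The naïve range was 96.6 to 325 CPM with a median of 264 CPM. Values of 252, 310, 257, 168 and 258 CPM were found in withdrawn mice 1 to 5, all inside the naïve range. Mean levels were 243 ± 80.3 CPM (SD, n = 6) and 249 ± 51.3 CPM (SD, n = 5). The edgeR log2 fold change was 0.034 (adjusted p = 0.988), with a 95% interval of -0.52 to 0.59 that holds changes in either direction. Without naïve mouse 5 it turned to -0.12 and without withdrawn mouse 2 to -0.061.

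Grin2b, whose GluN2B subunit closes slowly and binds the kinase CaMKII, moved with Grin1. Its naïve values ranged from 110 to 385 CPM with a median of 355 CPM. In withdrawn mice it was at 330, 411, 379, 228 and 342 CPM. Only withdrawn mouse 2 lay above the naïve range, and naïve mouse 5 was the lowest of all. The group means of 317 ± 105.5 CPM (SD, n = 6) and 338 ± 69.3 CPM (SD, n = 5) gave an edgeR log2 fold change of 0.093 (95% interval -0.49 to 0.67, adjusted p = 0.971). Without naïve mouse 5 the value was -0.077.

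Grin3a and Grin2d varied too much between mice for a comparison of moderate changes. Grin3a ranged from 14.3 to 83.0 CPM in naïve mice, with a median of 48.2 CPM, and was at 27.9, 68.4, 44.5, 30.4 and 53.6 CPM in withdrawn mice. All withdrawn values fell inside the naïve range. Its edgeR log2 fold change was -0.23 (95% interval -1.04 to 0.58, adjusted p = 0.949). For Grin2d the naïve range was 3.54 to 12.8 CPM, with a median of 8.20 CPM, and the withdrawn values were 7.78, 28.0, 3.08, 7.13 and 4.88 CPM. Withdrawn mouse 2 stood far above all other mice and withdrawn mouse 3 was the lowest. The edgeR log2 fold change of 0.37 (95% interval -0.92 to 1.66, adjusted p = 0.949) turned to -0.49 without withdrawn mouse 2.

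Grin2c and Grin3b did not pass the low-count filter and were not tested in the main edgeR fit. DESeq2, run without that filter, gave Grin2c a log2 fold change of -4.07 (Wald test unadjusted p = 0.0515) and no adjusted p. For Grin3b it gave 1.90 (Wald test adjusted p = 0.874). Naïve mice had 0, 6, 0, 1, 34 and 13 counts of Grin2c, and withdrawn mice 0, 0, 0, 2 and 0 counts. More than 3 counts were thus seen only in naïve mice 2, 5 and 6, and a count of 0 allows up to 3 counts, which is 0.135 to 0.408 CPM depending on the mouse and covers counting error only. Grin3b had 0, 0, 9, 5, 0 and 0 counts in naïve mice and 0, 11, 0, 17 and 0 in withdrawn mice. Detection of Grin3b was split within both groups, and its overlap with Tmem259 leaves the source of these reads uncertain.

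The replicate spread differed among members. The biological coefficient of variation fitted by edgeR was 0.245 for Grin2a, lower than for all but 8.85% of tested genes, and 0.312 for Grin1 and 0.325 for Grin2b, against a median of 0.529. Grin3a (0.448) and Grin2d (0.709) were more variable than these 3.

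**Figure D2:**
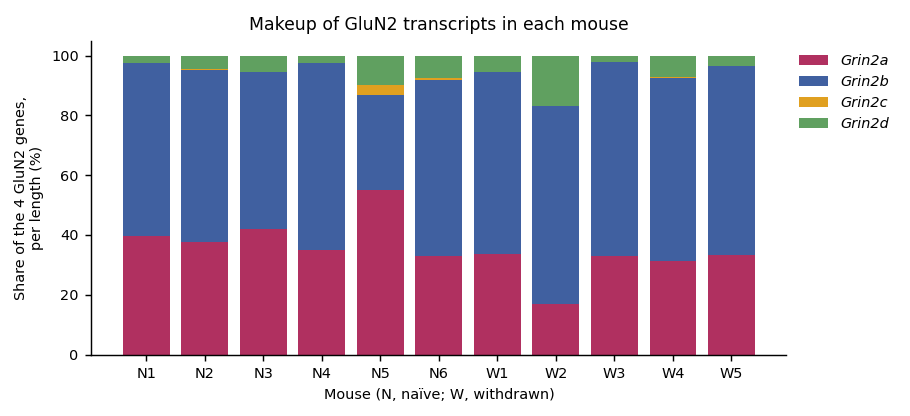
Share of Grin2a, Grin2b, Grin2c and Grin2d in the summed RPKM of the 4 GluN2 genes (vertical axis, percent) for each naïve (N) and withdrawn (W) mouse. Grin2a takes 33.0% to 55.0% in naïve and 17.0% to 33.7% in withdrawn mice, and Grin2b is the largest part in every mouse but naïve mouse 5.

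The balance of GluN2A to GluN2B was examined as the ratio of Grin2a to Grin2b within each mouse, which does not depend on library size. Per length of merged exons, naïve mice 1 to 6 had ratios of 0.686, 0.660, 0.796, 0.563, 1.73 and 0.559. Withdrawn mice 1 to 5 had ratios of 0.553, 0.258, 0.507, 0.511 and 0.528. All 5 withdrawn mice lay below all 6 naïve mice, with naïve mouse 5 and withdrawn mouse 2 far from the rest of their groups. The mean ratio was 0.832 ± 0.449 (SD, n = 6) in naïve and 0.471 ± 0.121 (SD, n = 5) in withdrawn mice. On the log2 scale, with 0.5 added to each count, the difference was -0.74 (95% interval -1.58 to -0.14), a fold of 0.597. The two-sided exact permutation test gave p = 0.00433, the smallest that 462 splits of 11 mice allow, and 0.0216 after adjustment over the 5 ratios tested.

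The gap between the closest mice was narrow. Grin2a made up 28.7% of the Grin2a and Grin2b counts in naïve mouse 6 (Wilson 95% interval 27.8% to 29.7%) and 28.5% in withdrawn mouse 1 (27.4% to 29.6%), so that these neighbours overlapped within counting error. Without naïve mouse 5 the log2 difference was -0.51, a fold of 0.703, and without withdrawn mouse 2 it was -0.54, a fold of 0.688. Sets that lacked 1 mouse gave an exact p between 0.00794 and 0.00952, the smallest each of these smaller sets allows, as it must be where the full groups do not overlap. Without both of these mice, a choice made after seeing the data, the difference fell to -0.30, a fold of 0.811, with an exact p of 0.0159, the smallest for 4 against 5. Without the 3 mice with a conflicting label it was -1.01 with an exact p of 0.0714, which is the smallest that 2 against 6 allow. Naïve mouse 5 also had the smallest share of reads on no gene and the fewest genes detected, 15585, and the part of these measures in its ratio was not tested.

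The level of the ratio depends on the length used, and on any Grin2a reads left out for their match to Gm7328. Per coding length the naïve mean was 0.608 ± 0.328 and the withdrawn mean 0.344 ± 0.0883, and per longest transcript 0.988 ± 0.533 and 0.559 ± 0.143. The difference between groups on the log2 scale is the same for every length, since length enters both groups alike.

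**Figure D3:**
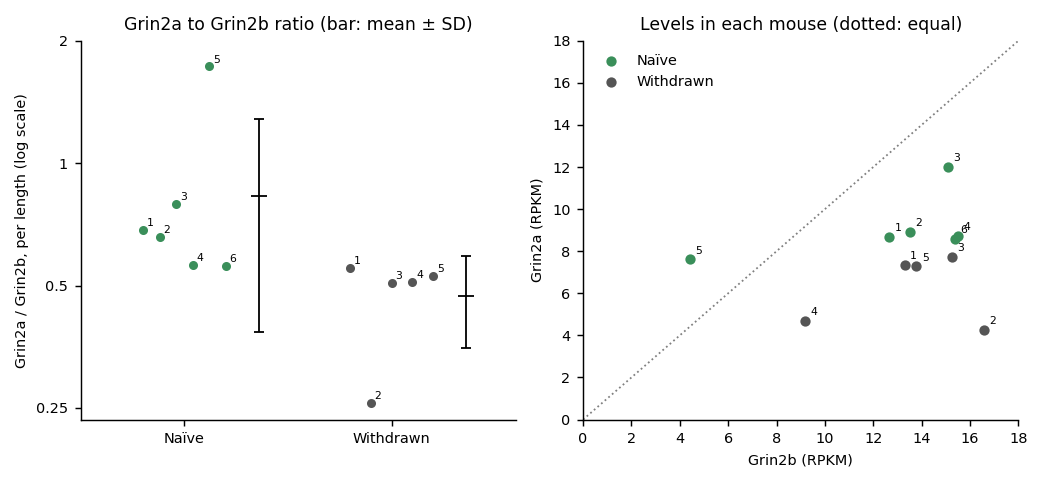
Left, Grin2a to Grin2b ratio per length (log axis) in each mouse, with mouse numbers and mean ± SD. Right, Grin2a against Grin2b in RPKM, with a dotted line where both are equal: all withdrawn ratios, 0.258 to 0.553, are below the lowest naïve ratio of 0.559, and naïve mouse 5, at 1.73, is the only mouse above the line.

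Relative to Grin1, Grin2a had a lower mean in withdrawn mice, which missed the threshold after adjustment. The Grin2a to Grin1 ratio per length had a naïve range of 0.261 to 0.766 with a median of 0.356, and withdrawn values of 0.283, 0.133, 0.292, 0.272 and 0.273. Withdrawn mouse 2 lay below all naïve mice and the other 4 lay between naïve mouse 4, the lowest of its group, and the remaining naïve mice. The log2 difference was -0.67 (95% interval -1.48 to -0.059, exact permutation p = 0.0216, adjusted over 5 ratios 0.0541). By ranks the exact p was 0.0519, and without naïve mouse 5 and withdrawn mouse 2 the difference was -0.26 (exact p = 0.0794).

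The Grin2b to Grin1 ratio per length was the most even of the 5, at 0.443 to 0.571 in naïve mice, with a median of 0.495, and 0.512, 0.518, 0.576, 0.531 and 0.517 in withdrawn mice. The groups overlapped, and withdrawn mouse 3 alone lay just above the naïve range. The log2 difference was 0.075 (95% interval -0.11 to 0.23, exact permutation p = 0.333), so the interval leaves out differences larger than 1.17-fold upward and lower than 0.923-fold downward.

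Transcripts of the AMPA receptor, the other main glutamate-gated channel of these synapses, were set against Grin1. The Gria1 to Grin1 ratio per length ranged from 1.597 to 2.57 in naïve mice, with a median of 2.04, and was 1.53, 1.11, 1.84, 2.03 and 1.62 in withdrawn mice. The log2 difference was -0.36 (95% interval -0.78 to 0.049, exact permutation p = 0.0866, adjusted 0.144). For Gria2, whose subunit makes AMPA receptors impermeable to calcium, the naïve ratios ranged from 1.59 to 5.55, with a median of 2.18, and the withdrawn ratios were 2.04, 1.20, 2.02, 1.94 and 2.10. The log2 difference was -0.43 (95% interval -1.17 to 0.14, exact permutation p = 0.186, adjusted 0.233). Neither ratio passed the threshold, and in both the groups overlapped. Without naïve mouse 4, the lowest naïve mouse of both, the exact p was 0.0476 for Gria1 and 0.0238 for Gria2. In another set, naïve mouse 5 and withdrawn mouse 2 were left out instead, a choice made after seeing the data. The log2 difference was then -0.17 for Gria1 (exact permutation p = 0.317) and -0.040 for Gria2 (exact permutation p = 0.683).

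**Figure D4:**
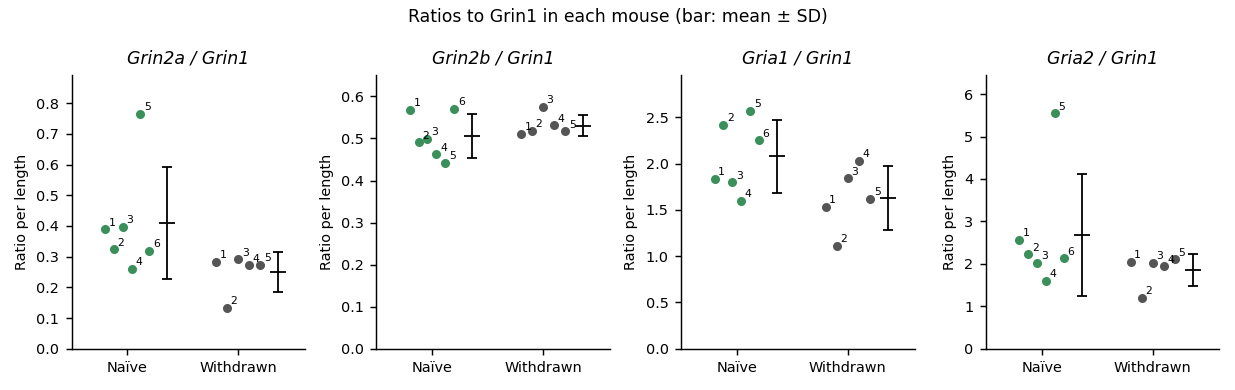
Ratios per length of Grin2a, Grin2b, Gria1 and Gria2 to Grin1 (vertical axes from 0) in each mouse, with mouse numbers and mean ± SD. The Grin2b to Grin1 ratio stays between 0.443 and 0.576 in all mice. Naïve mouse 5 is highest and withdrawn mouse 2 lowest for the ratios of Grin2a, Gria1 and Gria2.

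The total supply of subunit transcripts did not differ beyond the spread. The 7 genes summed to 52.6 ± 14.8 RPKM (SD, n = 6) in naïve and 51.0 ± 9.97 RPKM (SD, n = 5) in withdrawn mice. Per length of merged exons, the 4 Grin2 genes together were at 0.981 ± 0.221 of the Grin1 level in naïve and 0.839 ± 0.0405 in withdrawn mice. The length chosen changes this level and the shares that follow, so they do not give the makeup of receptors. Within the Grin2 genes, the mean share of Grin2a was 40.4 ± 7.82% and 29.7 ± 7.13%, and that of Grin2b 53.5 ± 11.1% and 63.3 ± 2.29%. Grin2d took 5.37 ± 2.92% and 6.93 ± 5.85%, with 16.8% in withdrawn mouse 2. No test was run on these sums and shares, which hold the same counts as the ratios.

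Across the 11 mice, Grin1 and Grin2b varied together. Their log2 CPM correlated with Pearson's r = 0.977 (permutation p = 5e-05, 0.0005 adjusted over 10 pairs of members) and Spearman's rho = 0.873 (permutation p = 0.00079), and r was 0.790 without naïve mouse 5 and withdrawn mouse 4, the mice farthest from the median of Grin1. Grin3a correlated with Grin1 at r = 0.844 (permutation p = 0.00273, adjusted 0.0136) and rho = 0.809 (permutation p = 0.00407, adjusted 0.0203), but r fell to 0.421 without these mice, so that this relation rests on them. Grin3a with Grin2b gave r = 0.827 (permutation p = 0.00493, adjusted 0.0164) and rho = 0.564 (permutation p = 0.0765, adjusted 0.255), and 0.314 without the same mice. For Grin2a the pooled values were lower, with r = 0.161 against Grin1 (permutation p = 0.604), 0.121 against Grin2b (permutation p = 0.659) and 0.213 against Grin3a (permutation p = 0.526), and rho of 0.345, 0.0909 and 0.409 (permutation p = 0.298, 0.796 and 0.212). Within the 6 naïve mice alone, r was 0.980 for Grin1 with Grin2b and that of Grin2a was 0.590 with Grin1, 0.563 with Grin2b and 0.703 with Grin3a. The values for Grin2a over all mice pool groups whose Grin2a means were 163 and 112 CPM, and the part of this in the lower r was not tested. The naïve values hold only 6 mice, with naïve mouse 5 among them. All points share library size and normalization between the genes compared.

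The genes most like each subunit over the 11 mice, by Pearson's r of log2 CPM among 16244 genes, are given as a description. For Grin1 they were Pi4ka (r = 0.980), Tenm2 (0.979) and Grin2b (0.977), and for Grin2b they included Pi4ka (0.991) and Tenm2 (0.983). Those of Grin2a were Tbc1d10b (0.917), Syt9 (0.915) and Synj2bp (0.914). Within the naïve mice alone these were 0.754, 0.646 and 0.940. The 3 genes also had negative log2 fold changes, of -0.43, -1.12 and -0.27, and the part of the group difference in the values over all mice was not tested.

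Of 37 genes for scaffolds, kinases, trafficking partners, co-agonist supply, signalling and transcription around NMDA receptors, 35 passed the low-count filter. EdgeR called 0 of them, against 0.00585% of all genes tested, and limma voom called 0 of these and of all genes. DESeq2 called 0 of them, against 1.66% of the genes to which it gave an adjusted p. With 35 genes, counts of 0 are near those shares. Among them 1 had an unadjusted p under 0.05, against 7.22% of all genes tested. Higher values in withdrawn mice were found for 16 and lower values for 19, against 8852 and 8241 of all 17093 genes tested. The median log2 fold change was -0.042 against 0.021 over all genes. The gene with an unadjusted edgeR p under 0.05 was Fyn, a tyrosine kinase that phosphorylates GluN2 subunits. The naïve mean of Fyn was 168 ± 27.0 CPM (SD, n = 6) and the withdrawn mean 125 ± 13.5 CPM (SD, n = 5), and the groups overlapped. Its edgeR log2 fold change was -0.43 (SE 0.15, unadjusted p = 0.0127, adjusted p = 0.461).

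The tested genes with the highest or the lowest log2 fold change in the groups of partners were as follows, and none was called. Among scaffolds of the postsynaptic density these were Dlg3 (0.23) and Dlg4 (-0.30), which encode SAP102 and PSD-95. Of the kinases and phosphatases, 7 of 8 had negative values, from Src at 0.12 to Fyn at -0.43. Trafficking and surface partners ran from the receptor kinase Ephb2 (0.37) to the activity-dependent gene Arc (-0.61). For co-agonist supply, the glycine transporter gene Slc6a5 (1.69, at 0 to 6.04 CPM) was highest and Srr, which encodes serine racemase, lowest (-0.19), while Dao and Slc7a10 were too low to test. Of the 6 genes for downstream signalling, 3 had positive values, with Rasgrf2 highest (0.13). All 4 genes for regulators of GluN transcription had positive values, and the repressor gene Rest was highest (2.10, adjusted p = 0.783).

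**Figure D5:**
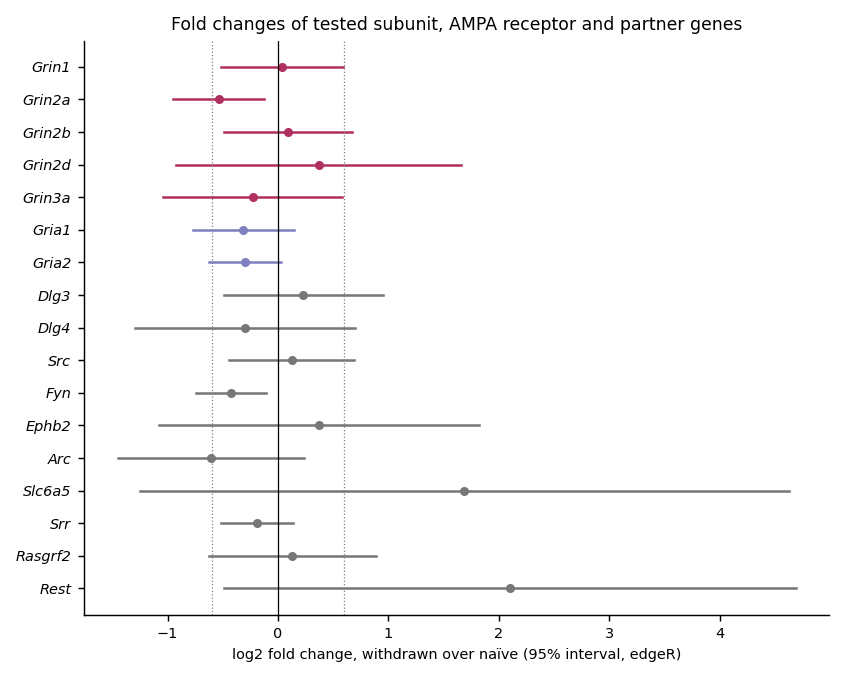
Log2 fold change of withdrawn over naïve mice (horizontal axis) with its 95% interval from edgeR for the 5 tested subunit genes, Gria1 and Gria2, and 10 partner genes with the highest or lowest value in their group. Dotted lines mark a log2 fold change of 0.6 in either direction. The intervals of Grin2a (-0.95 to -0.12) and Fyn (-0.74 to -0.11) leave out 0, and no gene shown was called.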

How the data were processed

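The authors trimmed the 75-base single reads, aligned them with STAR to GRCm38 and tallied them per Ensembl gene with HTSeq. The deposited values are raw counts, whole numbers per gene and mouse, not normalized or pooled. Whether strand was used in counting is not given in the sources used here. The cDNA was amplified from 160 pg of RNA without molecular identifiers, so Wilson intervals and limits from a count of 0 cover counting error only. The edgeR and permutation intervals cover the spread between mice. The 11 libraries held different values.

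Symbols, coordinates and exon lengths came from GENCODE M21 (GRCm38), in which 53274 of 53465 identifiers have a symbol. Counts were fitted with edgeR 4.0.16 in R 4.3.3 (TMM, filterByExpr with a minimum count of 10 and total of 15, quasi-likelihood test, Benjamini-Hochberg adjustment). CPM used TMM-normalized library sizes, and log2 CPM a prior count of 2. Ratios were tested by exact permutation in scipy 1.17.1, with intervals by inverting the test. The scripts were tested on simulated data. Alternatives were DESeq2 1.42.0, limma 3.58.1 voom, other size factors, no filter, a replicate block and mice left out.

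The members and lists were chosen with earlier results of these data known. Genes named are the members, Gria1, Gria2, the extremes of each partner group and the 3 genes most like Grin1, Grin2a and Grin2b. Some genes and sequences under these rules are not reported here. Marker lists of 8 cell types were summed per mouse.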

Additional observations from a re-analysis of the deposited data

Results flagged for a closer look

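Of 25 sets of member levels and ratios, 8 had an extreme mouse by Dixon's test at the 95% level within a group, where chance gives about 1.25. Naïve mouse 5 was low in log2 CPM for Grin1 (6.60), Grin2b (6.78) and Grin3a (3.85), and high in the log2 ratio of Grin2a to Grin2b counts (0.32). Naïve mouse 3 was high in log2 CPM for Grin2a (7.75). Withdrawn mouse 2 was low in the log2 ratios of counts of Grin2a to Grin2b (-2.43), Grin2a to Grin1 (-2.02) and Gria2 to Grin1 (0.94). In naïve mouse 5, 5.77% of reads were on no gene, 15585 genes were detected, and 9 of 10 fibroblast markers were at 0. Withdrawn mouse 2 had 39.6% of reads on no gene. The part of these measures in the values was not tested.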

How the results depend on the processing

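EdgeR called 1 gene. DESeq2 called 362 genes, the fit without a low-count filter 137, and limma voom, the replicate block, the fit without the 3 mice with a conflicting label and the added covariate for reads on no gene 0 each. Leaving out 1 mouse gave 0 to 193 genes, with 193 without withdrawn mouse 2 and 6 without naïve mouse 2, and leaving out naïve mouse 5 and withdrawn mouse 2, added after seeing the data, gave 310. No member or partner gene was called in any setting.

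The log2 fold change of Grin1 ranged from -0.12 to 0.15 with 1 mouse left out, and was -0.017 with the covariate and -0.22 without naïve mouse 5 and withdrawn mouse 2. That of Grin2b ranged from -0.077 to 0.21, and was -0.16 without both mice. Grin2d ranged from -0.49 to 0.58, and was -0.25 with voom, -0.21 with the covariate, -0.42 without both mice and 1.115 without the 3 mice with a conflicting label. Grin3a ranged from -0.43 to -0.054, and was -0.61 without both mice (edgeR unadjusted p = 0.0435, adjusted p = 0.542). The cause was not tested. Grin2a and Grin3a kept a negative sign in all 19 alternatives.

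With the replicate block, pairing mice by number, the ratio of Grin2a to Grin2b gave -0.83 (exact p = 0.0625, the smallest for 5 pairs) and Grin2a to Grin1 -0.72 (exact p = 0.125). Same-numbered mice did not deviate together, with correlations of -0.20 to 0.18, and only number 5 matched its own number best. Without the 3 mice, the ratios were -1.01 (exact p = 0.0714) and -0.98 (exact p = 0.143). Without naïve mouse 5 and withdrawn mouse 2, the log2 difference of Grin2a to Grin1 was -0.26. By ranks, that ratio differed by -4.03 mean ranks. With 1 mouse left out, the ratio to Grin2b ranged from -0.83 to -0.51 and that to Grin1 from -0.78 to -0.46. Gria1 to Grin1 ranged from -0.45 to -0.23 and Gria2 to Grin1 from -0.55 to -0.19, both past 0.05 only without naïve mouse 4. Without a length correction 5 of 6 neighbour pairs kept their order. Depth limits Grin2c and Grin3b, which had at most 34 counts.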

Other observations

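The summed CPM of the other cell type marker lists is given for the libraries in which the subunit genes were measured. GABAergic interneuron markers (8 genes) summed to 85.1 to 928 CPM in naïve and 32.1 to 730 CPM in withdrawn mice, astrocyte markers (8 genes) to 315 to 533 CPM and 257 to 678 CPM, and oligodendrocyte markers (7 genes) to 135 to 272 CPM and 109 to 265 CPM. Markers of oligodendrocyte precursors (6 genes) were at 0 to 15.5 CPM in naïve and 8.21 to 28.5 CPM in withdrawn mice, those of microglia (7 genes) at 8.81 to 24.9 CPM and 8.28 to 44.3 CPM, and those of endothelial cells (7 genes) at 3.18 to 767 CPM and 39.3 to 627 CPM. The 7 excitatory neuron markers summed to 2629 to 3813 CPM and 1625 to 3691 CPM. In each of these lists the summed levels of the groups overlapped. Of the 7 tested astrocyte markers, 5 had a negative and 2 a positive log2 fold change in withdrawn mice. An unadjusted edgeR p under 0.05 was found for 3 of these 7, against 7.22% of all genes tested. Each other list of this paragraph had 1 or 0 genes with such a p. The part of these lists in the levels of the subunit genes was not tested.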
